A study of Danio rerio with 6 samples.

Results

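The genes described here are csf3r, csf3a, csf3b, jak2a, stat3, socs3a and socs3b, which encode the receptor, the ligands, a kinase, a transcription factor and the feedback inhibitors of zebrafish granulocyte colony-stimulating factor (G-CSF) signalling. They were chosen by name, as the Ensembl genes whose listed symbol equals one of these names, and make up 7 of the 32520 Ensembl genes in each count table. RNA-seq libraries were made from mpx:eGFP-positive cells of Tg(mpx:eGFP) zebrafish embryos at 48 hours post fertilisation, a reporter in which the promoter of the neutrophil myeloperoxidase gene mpx drives green fluorescent protein. The control group, labelled WT with a control treatment, held 3 libraries, and the morpholino group, labelled znf711 knockdown with a znf711 morpholino (MO), held another 3. Both groups carried the reporter, and all 6 libraries were labelled as neutrophils from haematopoietic tissue. The labels leave unsaid what the control embryos received, how pure the cells were and how many embryos each library holds. A mutant of znf711 is named in the design text of the series, where the labels of the samples name a morpholino.

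In vertebrates, G-CSF is the cytokine that drives the production, maturation and release of neutrophils, and it acts through a receptor, Csf3r, that has no kinase domain of its own. Binding of the ligand brings Jak kinases, Jak2 among them, into contact, and these phosphorylate the receptor and the transcription factor Stat3, which then enters the nucleus. Stat3 raises transcription of Socs3, which binds the receptor and the kinase and shuts the signal off. Zebrafish keep duplicated copies of several of these genes: csf3a and csf3b are paralogous ligands, and socs3a and socs3b are paralogous inhibitors. In zebrafish embryos csf3r is known for its part in forming and mobilising early myeloid cells.

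The libraries held between 1629804 and 12093109 counts, the smallest being morpholino library 1. That library had counts for 8041 Ensembl genes, against 13434 to 16074 in the others. Levels below are CPM, the read count as a share of the library's size, after trimmed mean of M-values scaling (TMM CPM), and 3 counts, the limit that a count of 0 allows, were worth 0.281 to 1.61 TMM CPM, a limit that covers counting error only. The morpholino's target znf711 stood at 41.1, 16.5 and 9.79 TMM CPM in control libraries 1 to 3 and at 0.537, 11.2 and 17.7 in morpholino libraries 1 to 3, so the groups overlapped. The value of 0.537 was a single count, below the 1.61 TMM CPM that 3 counts were worth in that library. The level of mpx itself was 520, 2926 and 2703 TMM CPM in the controls and 559, 2731 and 5068 in the morpholino group, lowest in both libraries numbered 1. The 9 neutrophil markers summed to 1692 to 13299 TMM CPM in the controls and 2428 to 16575 in the morpholino group, led by npsn. The neutrophil marker lyz held only 0 to 8 counts in any library, while an unnamed model at its position on an alternate scaffold held 34 to 67650. Erythroid markers, led by the globin gene hbae3, summed to 3989 to 13219 TMM CPM in the controls and 2152 to 16907 in the morpholino group. In bulk RNA of this kind, fewer cells of a type and less RNA per cell cannot be told apart.

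None of the 7 genes passed the test between the groups. All 7 passed the filter on low counts, and edgeR's quasi-likelihood test with Benjamini-Hochberg adjustment gave each an adjusted p of 0.9999. DESeq2 and limma-voom also called 0 of the 7. The test called 0 of all 16637 rows tested, 0% of them, and 1.05% of the rows had an unadjusted p under 0.05, with 0 of the 7 genes among them. DESeq2 fitted to every row called 0.698% of 20068 rows, again with none of the 7. The log2 fold changes, morpholino over control, were positive for 5 of the genes and negative for 2, with a median of 0.40 beside -0.12 over all rows tested. No gene of the 7 had groups that did not overlap, against 7.44% of all rows, 2.09% with the morpholino group higher and 5.35% with it lower. These tests measure only the spread between the 6 libraries, with a common biological coefficient of variation of 1.09 across all rows.

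**Figure D1:**
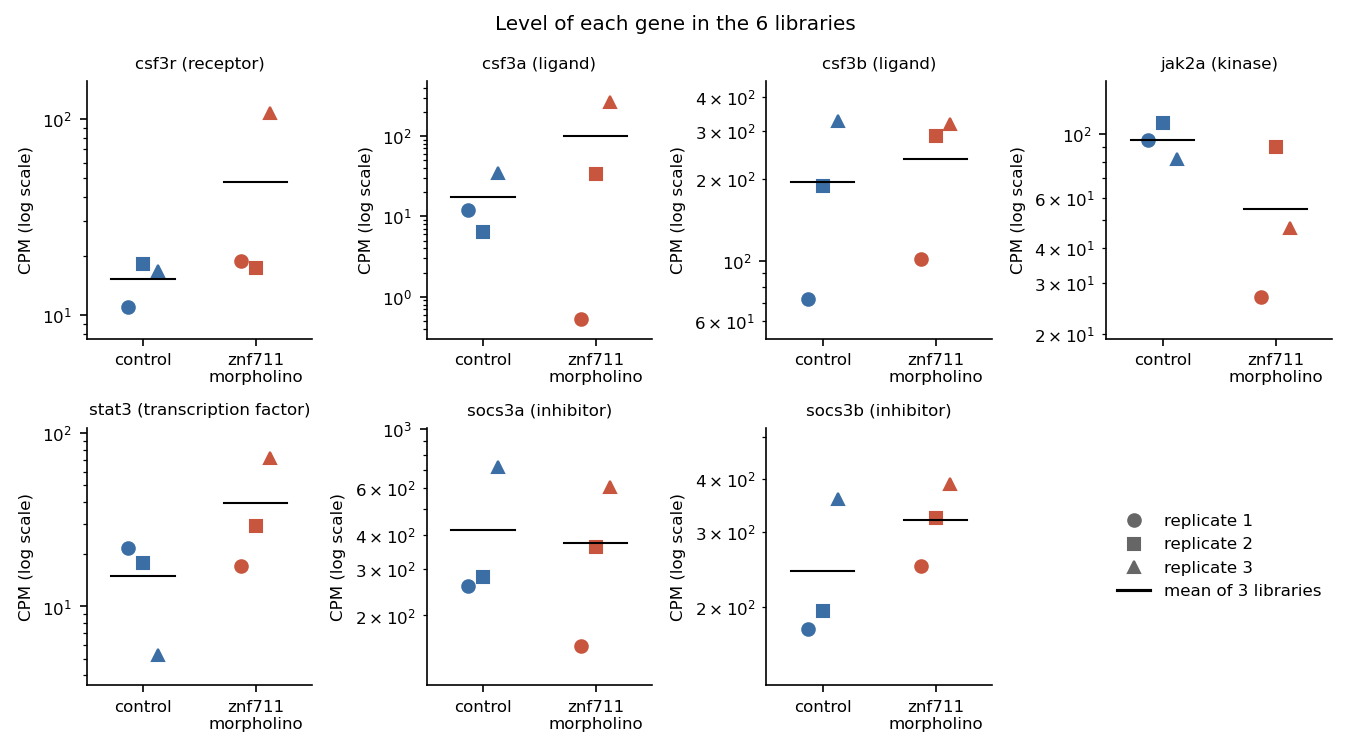
TMM CPM on a log axis for each of the 7 genes, with blue points for control and red points for morpholino libraries, marker shapes for the replicate number and a black line at each group's mean of 3. csf3r, csf3a and stat3 are each led by morpholino library 3, whose csf3r stands at 107 TMM CPM, while csf3b, socs3a and socs3b have interleaved groups.

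The receptor gene csf3r (ENSDARG00000045959, GRCz11 chromosome 16, 3103182 to 3127749, minus strand) was low in 5 libraries and high in 1. It stood at 10.99, 18.1 and 16.8 TMM CPM in control libraries 1 to 3, from 93, 147 and 103 counts. In morpholino libraries 1 to 3 it stood at 18.8, 17.3 and 107 TMM CPM, from 35, 185 and 1102 counts. Morpholino library 3 was thus 5.69-fold above the next library, and the other 5 libraries lay within 10.99 to 18.8, controls and morpholino libraries interleaved. The group means were 15.3 ± 3.78 and 47.7 ± 51.3 TMM CPM (SD, n = 3 each). The log2 fold change was 1.64 ± 0.90 (SE), with a 95% interval from -0.25 to 3.54. Without morpholino library 3 it was 0.24. The groups overlapped in that subset, but not without control library 2 or without morpholino library 2, where 4.47% and 4.75% of all rows had a higher morpholino group with no overlap.

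Of the ligand genes, csf3a (ENSDARG00000102211, chromosome 12, 10631266 to 10637172, plus strand) varied most between libraries among the 7 genes. It stood at 11.9, 6.39 and 34.4 TMM CPM in control libraries 1 to 3, from 52 to 211 counts. The morpholino libraries held both its lowest and its highest level, at 0.537, 33.4 and 268 TMM CPM in libraries 1 to 3, from 1, 356 and 2760 counts. The ratio of morpholino library 3 to library 1 was 499, but with a single count in library 1 its exact counting interval ran from 89.5 to 19721. Morpholino library 3 stood 7.78-fold above the next library, and morpholino library 2 was close to control library 3. Means of the groups were 17.6 ± 14.9 and 100.6 ± 146 TMM CPM (SD, n = 3 each). Its log2 fold change of 2.52 ± 1.54 (SE) had a 95% interval from -1.05 to 6.09, and without morpholino library 3 it was -0.02.

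Its paralogue csf3b (ENSDARG00000098752, chromosome 19, 48037798 to 48039506, minus strand) was read more deeply, with 190 to 3297 counts a library. It stood at 72.6, 188 and 326 TMM CPM in control libraries 1 to 3 and at 102, 288 and 320 in morpholino libraries 1 to 3. In each group the library numbered 1 was the lowest, and the groups covered nearly the same range. Control and morpholino means were 196 ± 127 and 237 ± 118 TMM CPM (SD, n = 3 each). The log2 fold change was 0.28 ± 0.57 (SE), with a 95% interval from -0.92 to 1.47. Leaving out 1 library at a time moved it between -0.12 and 0.85, the lower value without control library 1 and the higher without control library 3, and it was below 0 without morpholino library 3 as well.

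The kinase gene jak2a (ENSDARG00000104808, chromosome 21, 249970 to 294747, plus strand) had the narrowest control group of the 7 relative to its mean. It stood at 95.4, 110 and 82.1 TMM CPM in control libraries 1 to 3 and at 26.8, 89.9 and 47.1 in morpholino libraries 1 to 3. Morpholino libraries 1 and 3 lay below every control, while morpholino library 2 lay between control libraries 3 and 1. The group means were 95.7 ± 13.8 and 54.6 ± 32.2 TMM CPM (SD, n = 3 each). Its log2 fold change was -0.80 ± 0.58 (SE), with a 95% interval from -2.02 to 0.41. It kept its sign when any 1 library was left out, between -1.42 without morpholino library 2 and -0.49 without morpholino library 1. Without morpholino library 2 the groups did not overlap, as in 13.5% of all rows with the morpholino group lower, nor did they without control library 3 (11.1% of rows). The small gene plgrkt lies on the opposite strand within jak2a and held 2 to 129 counts a library. No source used here says whether the counting used strand, so how reads from any bases shared by the pair were assigned is not known.

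The other Jak2 gene, jak2b, stood at 52.9, 104 and 129 TMM CPM in the controls and 72.5, 102 and 130 in the morpholino group, with a log2 fold change of 0.10. Divided by listed gene length, jak2a stood above jak2b in every control library, at 3.35, 1.96 and 1.19 times its level. In morpholino libraries 1 to 3 the ratio was 0.688, 1.63 and 0.671, which overlapped the controls through library 2. Not divided by length, jak2a was above jak2b in control libraries 1 and 2 alone. It was below jak2b in control library 3, at 82.1 against 129 TMM CPM, and in every morpholino library. The order per length thus rests on the listed lengths, whose limits are given below, and no other length was read for jak2b.

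The transcription factor gene stat3 (ENSDARG00000022712, chromosome 3, 17030665 to 17107445, plus strand) had the lowest mean level of the 7 per listed kilobase. It was not the lowest in morpholino library 1, where csf3a was, or in morpholino library 3, where jak2a was. The level of stat3 was 21.9, 17.8 and 5.22 TMM CPM in control libraries 1 to 3, from 185, 145 and 32 counts. In morpholino libraries 1 to 3 it stood at 17.2, 29.0 and 72.3 TMM CPM, from 32, 309 and 745 counts. Morpholino libraries 2 and 3 lay above every control, and library 1 lay between control libraries 3 and 2. Means of the groups were 15.0 ± 8.68 and 39.5 ± 29.0 TMM CPM (SD, n = 3 each). The log2 fold change was 1.40 ± 0.93 (SE), with a 95% interval from -0.57 to 3.37. It stayed positive when any 1 library was left out, between 0.63 without morpholino library 3 and 1.76 without control library 1. Leaving out both libraries numbered 1, those of lowest mpx, gave 2.12. With either morpholino library 1 alone or both of these left out, the latter an alternative chosen after the data were seen, the stat3 groups did not overlap, as in 9.14% and 17.4% of all rows with the morpholino group higher.

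**Figure D2:**
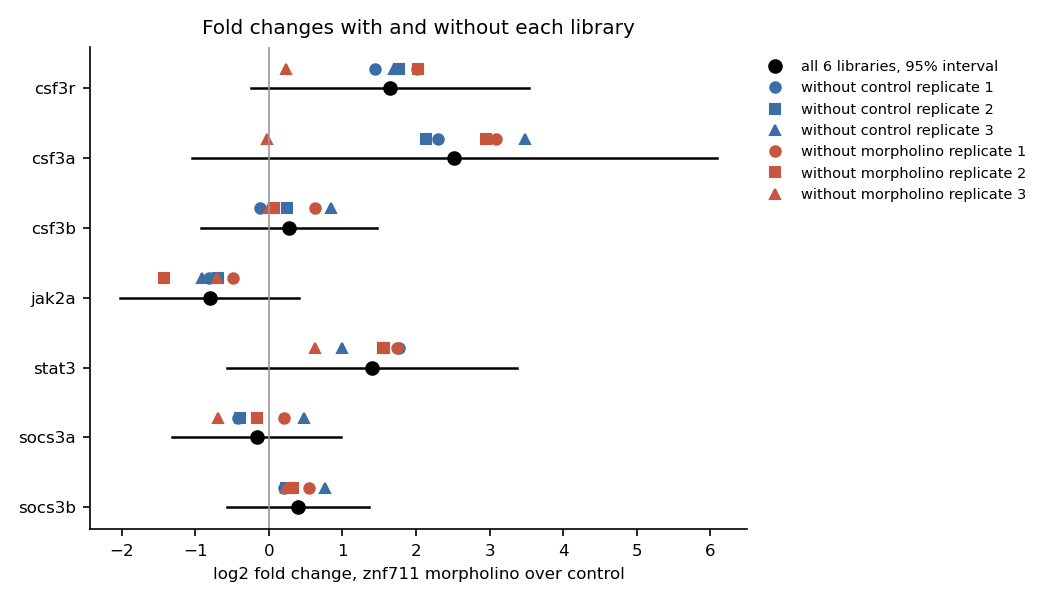
Log2 fold change of each of the 7 genes, morpholino over control, with its 95% interval, beside the values obtained when 1 library was left out at a time. Every interval crosses 0, and the values for csf3r and csf3a fall to 0.24 and -0.02 without morpholino library 3.

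The feedback inhibitor gene socs3a (ENSDARG00000025428, chromosome 3, 57423137 to 57425961, minus strand) had the highest mean level of the 7. It stood at 257, 279 and 720 TMM CPM in control libraries 1 to 3 and at 154, 361 and 606 in morpholino libraries 1 to 3. Control library 3 was the highest and morpholino library 1 the lowest, with the other libraries interleaved. Control and morpholino means were 419 ± 261 and 374 ± 226 TMM CPM (SD, n = 3 each). Its log2 fold change was -0.16 ± 0.54 (SE), with a 95% interval from -1.31 to 0.99. Its sign depended on the processing: it was 0.48 without control library 3, 0.20 without morpholino library 1 and 0.035 when libraries were scaled by their totals.

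Its paralogue socs3b (ENSDARG00000026611, chromosome 12, 34258139 to 34277465, plus strand) varied least of the 7 genes in the morpholino group relative to its mean. It stood at 177, 195 and 358 TMM CPM in control libraries 1 to 3 and at 250, 323 and 389 in morpholino libraries 1 to 3. Control libraries 1 and 2 were below every morpholino library, and control library 3 lay between morpholino libraries 2 and 3. The group means were 243 ± 99.4 and 321 ± 69.6 TMM CPM (SD, n = 3 each). The log2 fold change was 0.40 ± 0.46 (SE), with a 95% interval from -0.56 to 1.36, and leaving out 1 library at a time moved it between 0.21 and 0.76. Only without control library 3 did the groups not overlap, as in 3.98% of all rows with the morpholino group higher. The gene pgs1 overlaps socs3b on the opposite strand and held 0 to 56 counts a library, against 466 to 4010 for socs3b, so the same limit on strand applies.

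Divided by the listed gene length, socs3a, socs3b and csf3b stood above csf3r, jak2a and stat3 in 6 of 6 libraries. csf3a stood above csf3r and stat3 in 5 of 6 and above jak2a in 4 of 6, since it was below them all in morpholino library 1 and below jak2a in control library 2. The means over the 6 libraries, in TMM CPM per listed kilobase, were 205 for socs3a, 120 for csf3b, 93.1 for socs3b, 80.1 for csf3a, 11.7 for csf3r, 9.18 for jak2a and 2.45 for stat3. The means of csf3a and csf3r rested on morpholino library 3: without it they were 23.5 and 6.10, with csf3r below jak2a at 9.86, and that of stat3 was 1.64. The ranges over libraries of every pair of neighbours in this order overlapped. The step from socs3a to csf3b held within 6 of 6 libraries, and that from csf3r to jak2a in 2 of 6. The listed lengths limit this order, because the authors' deposited FPKM values equal count over listed length over total for csf3r, csf3a and socs3a alone. For the others they were 1.74 (csf3b), 1.77 (jak2a), 3.23 (stat3) and 1.34 (socs3b) times that quotient, so a shorter length had been used. The listed length of csf3b, 1800 bases, is also longer than the span of its own coordinates, 48037798 to 48039506. Its levels per listed kilobase are therefore too low. With the lengths those FPKM imply, csf3b at 209 TMM CPM per kilobase stood beside socs3a at 205, and jak2a at 16.2 stood above csf3r at 11.7, with stat3 again lowest at 7.91. On that scale csf3r stood above stat3 in 4 of 6 libraries and csf3a above jak2a in 3 of 6. csf3b stood above socs3a in 3 of 6 as well, so the step from socs3a to csf3b held on the listed lengths alone.

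**Figure D3:**
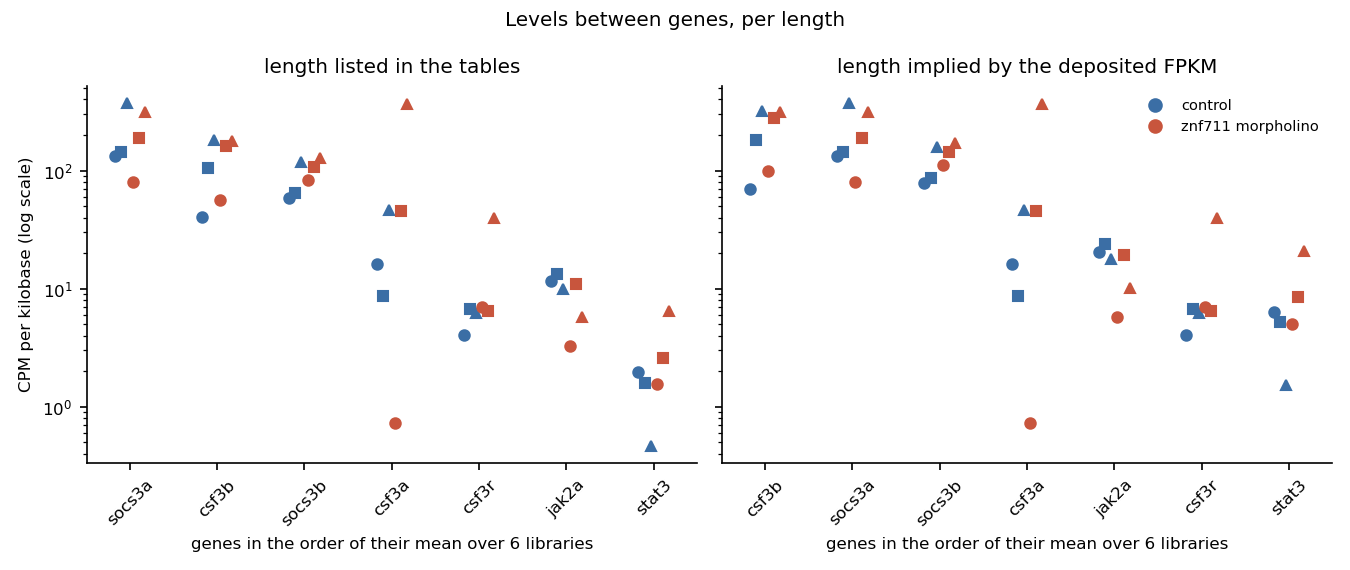
TMM CPM per kilobase on a log axis for the 7 genes in each of the 6 libraries, blue for control and red for morpholino. The left panel uses the listed gene length and the right panel the length implied by the deposited FPKM, each ordered by its own means. On the left the points of socs3a, csf3b, socs3b and most of csf3a lie above those of csf3r, jak2a and stat3, whose means are 11.7, 9.18 and 2.45. On the right csf3b and socs3a lead, at means of 209 and 205, and jak2a at 16.2 stands above csf3r at 11.7.

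Within a library, ratios between the genes are free of the scaling factor. The summed level per listed kilobase of csf3a and csf3b was 13.8, 16.8 and 36.4 times that of csf3r in control libraries 1 to 3 and 8.21, 31.8 and 13.6 times in morpholino libraries 1 to 3. The ligand transcripts were thus above the receptor's in 6 of 6 libraries, with overlapping groups. With the lengths implied by the FPKM they were 14.2 to 58.0 times the receptor's. The share of csf3a in the ligand sum per listed kilobase was 28.6%, 7.65% and 20.5% in the controls and 1.27%, 22.1% and 67.1% in the morpholino group. Morpholino library 3 was the only library in which csf3a made up most of the ligand level, and with the lengths implied by the FPKM its share there was 53.9%.

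The ratio of socs3a to socs3b per listed kilobase was 2.27, 2.24 and 3.15 in the controls and 0.964, 1.75 and 2.44 in the morpholino group, which overlapped. That of jak2a to stat3 was 5.92, 8.35 and 21.3 in the controls and 2.12, 4.21 and 0.883 in the morpholino group, lower in each morpholino library than in any control. It was singled out after its values were seen, and an exact permutation test of 3 against 3 cannot give a two-sided p below 0.1.

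The library with the highest level was morpholino library 3 for csf3r, csf3a, stat3 and socs3b, which are 4 of the 7 genes, and it was highest for 19.3% of all rows tested. It was at least 2-fold above every other library for csf3r, csf3a and stat3, and for 4.39% of all rows. The same library had the highest mpx level, at 5068 TMM CPM, the highest neutrophil marker sum and the lowest erythroid sum, at 2152. Of the neutrophil list, mpx and both rows of mmp13a were highest there. The other genes of that list, npsn, srgn, lect2l, scpp8, cebp1, nccrp1 and lyz, were each highest in another library. npsn stood at 4710 TMM CPM there against 4773 in control library 3, and srgn at 1188 against 1576. The marker sum leaves out the unnamed model at the position of lyz. That model stood at 321, 5174 and 3240 TMM CPM in control libraries 1 to 3 and 18.2, 6341 and 1008 in morpholino libraries 1 to 3. The lowest library was control library 1 for csf3r, csf3b and socs3b, morpholino library 1 for csf3a, jak2a and socs3a, and control library 3 for stat3. Both libraries numbered 1 had low mpx, at 520 and 559 TMM CPM, and the highest erythroid sums, at 13219 and 16907. Per 1000 TMM CPM of mpx, csf3r stood at 21.1, 6.18 and 6.22 in the controls and 33.6, 6.35 and 21.1 in the morpholino group, so its high value in morpholino library 3 was matched by control library 1 on that scale. That match rested on the low mpx of control library 1, where csf3r itself was lowest. On the same scale csf3a, alone of the 7 genes, was highest in morpholino library 3, at 52.9 against at most 22.9 elsewhere. The spread from highest to lowest library was narrower per mpx than in TMM CPM for csf3b (2.89-fold against 4.50-fold) and csf3r (5.44 against 9.73). That of csf3a, 55.1-fold against 499-fold, rested on its single count in morpholino library 1 on both scales. The spread was wider per mpx for jak2a (19.7-fold against 4.09-fold), stat3 (21.7 against 13.8), socs3a (5.19 against 4.67) and socs3b (6.70 against 2.20). The part of cell composition in these levels was not tested.

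Some marker sums of other cell types did not overlap between the groups, though no single row passed the edgeR test. Those of progenitors (330 to 449 TMM CPM in the controls, 193 to 255 in the morpholino group), endothelium (346 to 402 and 105 to 323) and connective tissue (576 to 774 and 268 to 370) were lower in every morpholino library than in any control. The summed level of p53 response genes, at 206 to 460 TMM CPM in the controls and 603 to 671 in the morpholino group, was higher in every morpholino library. Among all rows tested, 5.35% were lower and 2.09% higher in the morpholino group without overlap. Taken singly, tie1 alone of the endothelial markers and meis1b and tal1 alone of the progenitor markers did not overlap. The same held for col1a2, twist1a, col6a2 and lum of connective tissue, and for cdkn1a, mdm2, ccng1 and rps27l of the p53 list. Macrophages also respond to and make cytokines of this family, and their 9 markers, led by mfap4, summed to 217 to 922 TMM CPM in the controls and 136 to 1080 in the morpholino group, with 0 to 5 of the 9 at 0 counts. The part of these differences in the levels of the 7 genes was not tested.

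**Figure D4:**
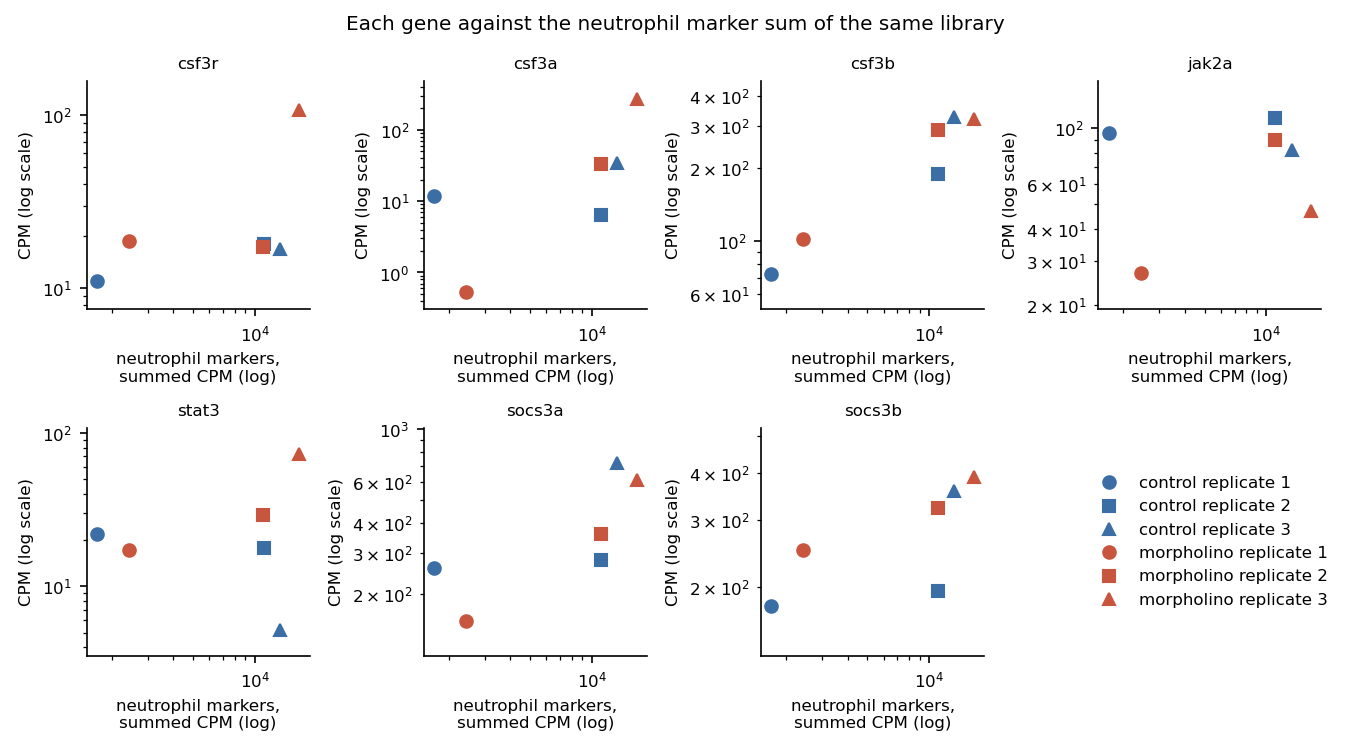
Levels of the 7 genes in TMM CPM against the summed neutrophil marker level of the same library, both on log axes, blue for control and red for morpholino. The libraries numbered 1, with neutrophil sums of 1692 and 2428 TMM CPM, lie at the left of each panel, and morpholino library 3, at 16575, lies at the right.

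The genes whose levels followed each of the 7 most closely over the 6 libraries were ranked by Pearson's r of log2(TMM CPM + 1) among 7704 named Ensembl genes with a mean of at least 10 TMM CPM, as a description with no test. The points share their libraries' depth and cell composition, and the highest of so many correlations over 6 points is high by selection. For csf3b they were mid1ip1b (r = 0.997), ccl34a.4 (0.992), spi1b, the gene of the myeloid transcription factor Pu.1 (0.991), anxa11b (0.989) and brca2 (0.988), and without morpholino library 3 these 5 lay between 0.987 and 0.997. For csf3r they were tmem189 (0.965), ahnak (0.963), gusb (0.960), ccng2 (0.956) and MYADM (0.950), and without morpholino library 3 they fell to between 0.281 and 0.687, so this likeness rested on that library. For csf3a they were abcb4, slc45a3, micall2b, plekhf2 and gsdmea, at 0.977 to 0.981. For stat3 they were coq10b, vmp1, letm2, fam177a1 and tle3a, at 0.948 to 0.983. For jak2a they were wu:fa19b12, si:ch211-195h23.3, eif3f, fmnl3 and nup205, at 0.985 to 0.993. For socs3a they were chic1, si:busm1-57f23.1, rnaseka, si:ch211-155k24.9 and slc25a15a, at 0.977 to 0.987, and for socs3b ammecr1, atg5, lygl1, lta4h and CABZ01088134.1, at 0.959 to 0.969.

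The rest of the pathway was read from a list of 121 other cytokine, receptor, Jak, Stat, inhibitor, adaptor and Stat3 target genes, of which 116 were found by symbol, in 117 rows. Of these rows 77 passed the filter on low counts and 11 held no count in any library. edgeR's test called 0 of the 77, beside 0% of all rows, and DESeq2 and limma-voom called 0 as well. The smallest unadjusted p among the 77 was 0.0729, for il11b, so 0 fell below 0.05. The log2 fold changes were positive for 43 and negative for 34, with a median of 0.10 beside -0.12 over all rows. The groups did not overlap for 7 of the 77, or 9.09%, all with the morpholino group lower, beside 5.35% of all rows in that direction. These were the receptor genes il2rgb and il7r, the adaptor gene gab2, and cebpd, fosab, junbb and mycb on the target list. Leaving out 1 library at a time put this count between 8 and 15, or 10.4% to 19.5% of the 77, beside 14.5% to 18.3% of all rows in the same subsets. Without morpholino library 1 the direction was mixed, with 7 genes higher and 8 lower in the morpholino group.

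**Figure D5:**
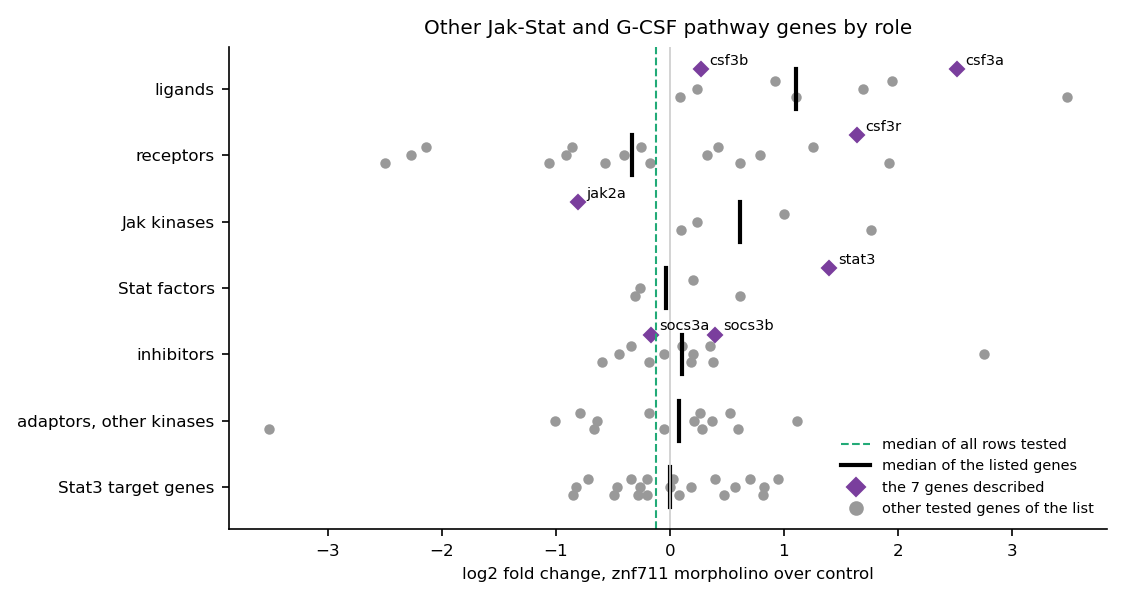
Log2 fold change, morpholino over control, of every tested gene on the 7 role lists of the Jak-Stat pathway, 1 point a gene, with each list's median. The 7 listed ligand genes and the 4 listed Jak kinase genes all lie above 0, with medians of 1.104 and 0.62. Without morpholino library 3 these turn to -0.31 and -0.13, beside -0.37 over all rows. The other lists spread to both sides. Diamonds mark the 7 genes described here, which are left out of the medians, with jak2a at -0.80 on the Jak kinase row.

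Among the ligands of related receptors, 7 of 18 genes were tested, all with positive log2 fold changes and a median of 1.104, and none passed the test. That sign rested on morpholino library 3: without it, 3 of 8 ligand genes tested were positive, with a median of -0.31 beside -0.37 over all rows. The median was 0.33 without control library 1. il6, the ligand that acts through the signal-transducing receptor gp130, stood at 16.9, 32.1 and 11.7 TMM CPM in the controls and at 0, 39.9 and 194 in the morpholino group. Like csf3a it was lowest in morpholino library 1, with 0 counts there, and highest in morpholino library 3. il11b, another gp130 ligand, stood at 0.355, 2.21 and 5.71 TMM CPM in the controls and 0, 2.53 and 89.9 in the morpholino group, with a log2 fold change of 3.49 ± 1.80 (SE, edgeR adjusted p = 0.9999). The anti-inflammatory cytokine gene il10 had 0 counts in both libraries numbered 1 and its highest level, 65.5 TMM CPM, in morpholino library 3. il34, a ligand of the macrophage growth factor receptor, was the most abundant of the list, at 38.1 to 526 TMM CPM in the controls and 47.2 to 664 in the morpholino group. Morpholino library 3 was the highest library for each of these 4 genes and for 31 of the 77 tested rows of the pathway list, beside 19.3% of all rows tested.

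Of 24 receptor genes 16 were tested, 6 with positive and 10 with negative log2 fold changes. il6r, which encodes the Il6-binding receptor chain, stood at 172, 509 and 419 TMM CPM in the controls and 237, 391 and 847 in the morpholino group. il6st, which encodes gp130, ranged from 42.6 to 67.1 TMM CPM in the controls and from 45.7 to 145 in the morpholino group. il7r, the receptor chain for the lymphoid cytokine Il7, stood at 16.1, 11.2 and 6.04 TMM CPM in the controls and 0, 2.53 and 3.11 in the morpholino group, without overlap. il10rb, a shared chain of the Il10 receptor family, stood at 48.4 to 166 TMM CPM in the controls and 11.8 to 144 in the morpholino group.

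All 4 other Jak kinase genes were tested, with positive log2 fold changes and a median of 0.62. Without morpholino library 3, 1 of the 4 was positive and the median was -0.13, beside -0.37 over all rows. The sign of this list thus rested on that library too, while jak2a was negative with and without it. jak2b and tyk2 (38.4 to 52.6 TMM CPM in the controls, 33.8 to 76.0 in the morpholino group) were detected in every library. jak3, which pairs with the common gamma chain, had 0 counts in morpholino library 1 and 118 TMM CPM in library 3, and jak1 stayed below 10 TMM CPM throughout. Of 7 other Stat genes 4 were tested, 2 in each direction. stat1a, a transcription factor of interferon signalling, was the most abundant Stat gene, at 115 to 148 TMM CPM in the controls and 49.9 to 175 in the morpholino group. stat5b (0 to 22.75 TMM CPM) and stat4 (0 to 10.9 TMM CPM) were at 0 counts in morpholino library 1 alone.

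Of 23 other inhibitor genes 11 were tested, 6 positive and 5 negative. ptpn6, the phosphatase Shp1 of blood cells, stood at 46.1, 425 and 373 TMM CPM in the controls and 266, 553 and 256 in the morpholino group. ptpn1, another phosphatase of Jak kinases, ranged from 56.7 to 136 TMM CPM in the controls and 87.5 to 138 in the morpholino group. pias4a, an E3 SUMO ligase that restrains Stat activity, was highest in morpholino library 1, at 157 TMM CPM, as was socs5a, at 40.8 TMM CPM against at most 3.66 elsewhere.

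Of 17 adaptor and further kinase genes, in 18 rows because lyn has a pair of rows, 13 genes in 14 rows were tested, with 7 rows in each direction. hck, a Src-family kinase of myeloid cells, stood at 51.2, 129 and 214 TMM CPM in the controls and 75.7, 238 and 538 in the morpholino group, with a log2 fold change of 1.12 ± 0.67 (SE) and overlapping groups. pik3r1, a regulatory subunit of phosphoinositide 3-kinase, and syk, a kinase of immune receptors, were steadier, with log2 fold changes of 0.22 and -0.18. gab2, a docking adaptor, stood at 10.9, 4.795 and 12.6 TMM CPM in the controls and 0, 1.97 and 0.291 in the morpholino group, from 0 to 21 counts.

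Of 23 genes on the Stat3 target list 21 were tested, 11 positive and 10 negative, with a median of 0.00. cebpb, a transcription factor of emergency granulopoiesis in mouse, was the most abundant, at 1164, 3953 and 6433 TMM CPM in the controls and 1104, 5555 and 3400 in the morpholino group. mmp9, a matrix metalloproteinase stored in neutrophil granules, ranged from 128 to 3037 TMM CPM in the controls and 352 to 5024 in the morpholino group, lowest in both libraries numbered 1. junbb, an AP-1 subunit gene, stood at 2623, 2433 and 2210 TMM CPM in the controls and 2073, 2152 and 1751 in the morpholino group. cebpd, a transcription factor gene of the same family as cebpb, stood at 331, 245 and 538 TMM CPM in the controls and 158, 236 and 235 in the morpholino group, with a log2 fold change of -0.82 ± 0.46 (SE). Both junbb and cebpd were lower in every morpholino library than in any control, and neither passed the test.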

How the data were processed

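RNA-seq was measured in 3 control and 3 znf711 morpholino libraries, labelled as biological replicates. The authors deposited, per the file headers, a raw count and an FPKM value per gene for each library, with gene position and length. Trimmomatic, HISAT2 2.0.5, HTSeq, edgeR, DESeq2 1.16.1 and GRCz11 are named, without roles, per the submitters' processing notes. For the annotation release and the use of strand, the sources used here give nothing.

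Each table held 59330 rows, 32520 of them Ensembl genes and 26810 unnamed models. Rows passing edgeR's filterByExpr (minimum count 10) were scaled by TMM and tested with edgeR 4.0.16's quasi-likelihood test (R 4.3.3) on all rows together, with a threshold of 0.05 on the adjusted p. Alternatives were DESeq2 1.42.0, limma-voom (limma 3.58.1), other scalings and filters, a replicate block and leaving libraries out. The authors' deposited FPKM served only to read the gene lengths they imply.

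The 7 genes and all lists were chosen with earlier results of these data known. The genes named beside the 7 were, on each pathway list, the 3 of highest mean TMM CPM and the 1 of smallest unadjusted p, the 5 most alike to each of the 7, and the most abundant gene of a marker list. mpx, the gene of the reporter, and znf711, the target of the morpholino, were named as well. il2rgb, fosab, mycb, lyz, mmp13a, srgn, lect2l, scpp8, cebp1 and nccrp1 were named after their values were seen. So were tie1, tal1, twist1a, col6a2, lum, cdkn1a, mdm2 and rps27l. The genes plgrkt, pgs1, med24, psmd3 and kpnb1 were named for their position beside one of the 7. Of the list, lif, cisha, pias3, bcl6a and nampt1 matched no symbol. Levels are limited by counting error, which is largest in morpholino library 1, and by the spread between libraries. Promoter and protein sequences were not used here.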

Additional observations from a re-analysis of the deposited data

How the results depend on the processing

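Under none of the 17 alternatives was any of the 7 genes, or any gene of the pathway list, called. The count over all rows was 0 in the reported fit, 12 with DESeq2 under the same filter, 140 with DESeq2 on all rows and 2 with no filter on low counts. Leaving out 1 library at a time gave 0 to 2 calls. The count of pathway genes whose groups do not overlap, 7 with all libraries, lay between 8 and 15 with 1 library left out, where 14.5% to 18.3% of all rows did not overlap, against 7.44% with all. The median log2 fold change ranged from -0.31 to 1.49 for the ligand list and from -0.13 to 1.23 for the Jak kinase list, both lowest without morpholino library 3. The log2 fold change of csf3a ranged from -0.022 to 3.48 over these subsets and that of csf3b from -0.12 to 0.85. That of socs3a ranged from -0.70 to 0.48, and was 0.0025 by limma-voom and 0.035 with scaling by library totals, against -0.16 as reported. The signs of csf3r, jak2a, stat3 and socs3b held in every alternative run. The cause of these changes was not tested. The median log2 fold change of all rows moved from -0.12 to -0.02 with scaling by library totals and to -0.37 without morpholino library 3. The deviations of same-numbered libraries from their group means had correlations of 0.122, 0.104 and 0.00414. Those of differently numbered libraries lay between -0.124 and 0.0762. The labels do not tie the replicate numbers, so these are taken as names. A replicate block called 0 rows and gave log2 fold changes of 1.27 for csf3a and 1.105 for csf3r. The alternative of adding unnamed models to the 7 genes gave no value, since none overlapped one of them. The 1629804 counts of morpholino library 1 limit its low values, such as the single csf3a count.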

Other observations

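The gene med24, a Mediator subunit gene, lies 6902 bases from csf3a, and psmd3, a proteasome subunit gene, lies 9696 bases from csf3b. The importin gene kpnb1 lies 96 bases from csf3b. med24 stood at 60.1, 15.7 and 25.9 TMM CPM in control libraries 1 to 3 and at 106, 32.3 and 40.6 in morpholino libraries 1 to 3, so the library in which csf3a was lowest held its highest med24 level. kpnb1 stood at 451, 675 and 802 TMM CPM in the controls and at 416, 594.5 and 478 in the morpholino group. An unnamed model 2559 bases from csf3a held 0 counts in all controls and 0, 3 and 48 counts in morpholino libraries 1 to 3, highest in the same library as csf3a. An unnamed model 3471 bases from stat3 held 0, 0 and 25 counts in the controls and 0, 2 and 48 in the morpholino group. Whether either belongs to its neighbour's transcript was not tested.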
